A study of Mus musculus with 7 samples.

Results

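*Trh*, the gene for the precursor of thyrotropin-releasing hormone (TRH), is described here together with 6 genes that make, sense or destroy the hormone: the convertases *Pcsk1* and *Pcsk2*, the carboxypeptidase *Cpe*, the amidating enzyme *Pam*, the receptor *Trhr* and the degrading enzyme *Trhde*. The 7 genes were taken by symbol from a table of 24739 mouse genes, and all 7 were found in it, each in 1 row. *Trh* was chosen by its FPKM values, which were higher in every mutant library, so these are given as a description without a test, and the other 6 were chosen for their roles. The values come from RNA-Seq of whole testes of C57BL/6 background embryos at E14.5, with 1 pair of testes per library. The groups were 3 libraries labelled wild-type and 4 from embryos homozygous for *Glis3* zf5, a global null allele of the transcription factor gene *Glis3* whose deletion takes out sequence of exon 4 and of the introns on either side of it (called mutant below). Ribosomal RNA was removed and poly-A RNA was not selected, so unspliced RNA was sequenced beside mRNA.

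TRH is a small peptide best known from the hypothalamus, where it drives release of thyroid-stimulating hormone from the pituitary, and its mRNA has long been known in the adult testis as well. Its precursor carries several copies of the peptide, each set between pairs of basic residues. Convertases cut at these pairs in secretory granules, carboxypeptidase E trims the basic residues left behind, the exposed glutamine closes into a ring, and the amidating enzyme turns the glycine at the end into an amide. Secreted TRH signals through a Gq-coupled receptor and is destroyed outside the cell by a membrane-bound peptidase.

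*Trh* (gene ID 22044) lies on the minus strand of chromosome 6, chr6:92242061-92244650 in mm10, and has 3 exons in GENCODE M21. Its coding sequence of 768 bases starts in exon 2, and all 5 copies of the hormone are encoded in exon 3. The copies are shown because they hold the sites at which the convertases, *Cpe* and *Pam* act on the precursor. Each stretch of 24 bases is written 5′ to 3′ on the coding strand, with the codons for glutamine, histidine, proline and glycine in capitals and the flanking codons for basic residues in lower case.

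copy 1, chr6:92243088-92243111: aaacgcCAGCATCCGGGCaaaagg
copy 2, chr6:92242992-92243015: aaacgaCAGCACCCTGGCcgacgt
copy 3, chr6:92242857-92242880: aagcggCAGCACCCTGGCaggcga
copy 4, chr6:92242803-92242826: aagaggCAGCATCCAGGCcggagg
copy 5, chr6:92242710-92242733: aaacgtCAGCATCCTGGCaaaagg

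The 5 copies encode the same residues between the basic pairs with 4 different sequences, since copies 2 and 3 are identical over the capitals. The FPKM value of *Trh* covers the whole transcript of 1384 bases and does not separate the copies.

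Expression was given by the authors as FPKM, a number of fragments divided by the length of the transcript and the size of the library, which allows levels of different genes to be compared within a library. A test with limma on log2(FPKM + 0.5) was run for the 13988 genes whose mean reached 0.5 FPKM, and a gene was called changed at a Benjamini-Hochberg adjusted p under 0.05. Values of a gene are given below in the order of replicates 1, 2 and 3 of the libraries labelled wild-type and then replicates 1 to 4 of the mutant libraries. The sum of FPKM per library was between 694243 and 1018678, and between 18644 and 19081 genes had a value above 0. By the most common ratio between libraries among low values, the depth of the shallowest library was 0.786 times that of the deepest. *Glis3* itself had 7.63, 6.89 and 2.91 FPKM in the wild-type-labelled group and 3.86, 3.26, 2.90 and 2.66 FPKM in the mutant group. The library labelled wild-type replicate 3 was thus at the level of the mutants for the targeted gene, although FPKM also counts the exons that the allele retains. Its removal raised the number of genes called changed from 1 to 720.

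Markers of the cells of the testis were read from the same table. All 10 germ cell, 10 Sertoli cell and 10 fetal Leydig cell markers passed the filter. The germ cell list had a median log2 fold change of -0.80, with 6 of 10 genes lower in every mutant library than in every library labelled wild-type, and its summed level was 594 to 1360 FPKM in the wild-type-labelled group and 481 to 627 FPKM in the mutant libraries. The fetal Leydig cell list had a median of 0.42, with 5 of 10 genes higher in every mutant library, and sums of 1820 to 2930 and 2820 to 3420 FPKM. Among all tested genes, every mutant library was lower in 7.59% and higher in 7.31%. Of 12 neuronal and chromaffin cell markers, 6 passed the filter, with a median of -0.11. The sums of the list were 11.6 to 21.3 and 21.8 to 26.1 FPKM. To these *Tubb3*, a neuronal tubulin gene and the 1 gene whose groups did not overlap, gave 8.25 to 15.7 and 17.8 to 21.2 FPKM. *Th*, *Nefl* and *Stmn2* had log2 fold changes of -0.46, -0.38 and -0.26, and *Syt1* and *Prph* had 0.29 and 0.04, all with overlapping groups. *Dbh*, an enzyme of chromaffin cells, was listed at 0 in every library labelled wild-type and at most at 0.02 FPKM in the mutant libraries. Fewer cells of a type and less RNA per cell cannot be told apart in such libraries, and the part of these lists in the results below was not tested. The authors also counted germ cells in sections at E14.5. They reported mutant and wild-type numbers as not different, though their discussion places the first loss at this stage. They also reported several germ cell genes as unchanged. Somatic cell populations were reported as not altered, with the Leydig cell gene *Cyp11a1* measured by qPCR at a later stage.

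*Trh* was higher in the mutant libraries, as the choice of the gene required. It had 3.19, 2.50 and 2.12 FPKM in the wild-type-labelled group, against 6.58, 7.36, 10.9 and 9.10 FPKM in the mutant group. Every mutant library was above every library labelled wild-type, and the lowest mutant library had 2.06 times the level of the highest wild-type library. The means were 2.61 ± 0.541 FPKM (SD, n = 3) and 8.48 ± 1.91 FPKM (SD, n = 4), a ratio of 3.25 and a log2 fold change of 1.52 with a standard error (SE) of 0.18. Within the groups, the highest mutant library exceeded the lowest by 1.65-fold and the highest library labelled wild-type exceeded the lowest by 1.5-fold.

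**Figure D1:**
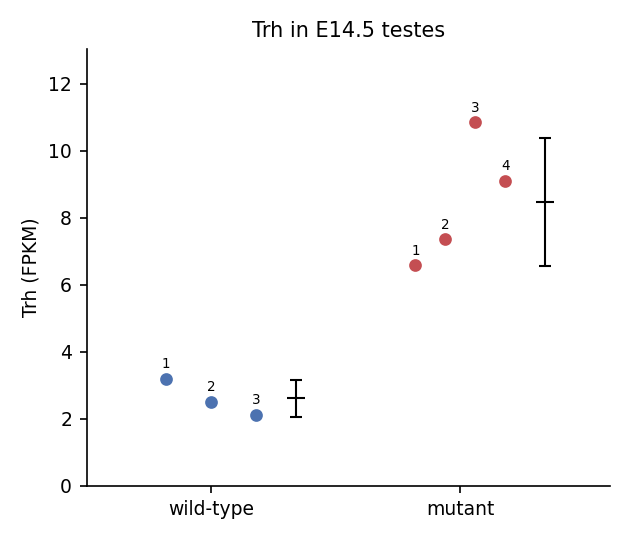
*Trh* in each library, in FPKM on the vertical axis, for 3 libraries labelled wild-type and 4 mutant libraries; numbers beside the points are replicate numbers, and the black mark with its bar is the mean with the SD. The mutant libraries sit between 6.58 and 10.9 FPKM, all above the highest library labelled wild-type at 3.19 FPKM.

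These values rested on few reads in absolute terms. The mean of *Trh* over the 7 libraries was at percentile 36.3 of the tested genes. A rough estimate put its fragments near 137, 88 and 72 in the wild-type-labelled group and near 232, 244, 390 and 303 in the mutant libraries. Among all tested genes, its log2 fold change was the 7th from the top. Among the genes whose mutant libraries were all higher, it was the 2nd. Since *Trh* was picked by these same values, both ranks reflect that choice and are not a test. The library labelled wild-type replicate 3 had the lowest *Trh* level of all 7, and without it the log2 fold change was 1.41. The mutant libraries differed among themselves as well, with more *Trh* in replicates 3 and 4 than in replicates 1 and 2. The sum of FPKM over all genes was also higher in the former pair (1018678 and 995290) than in the latter (831918 and 776951). In the wild-type-labelled group the order was the other way. There replicate 1 had the most *Trh* and the lowest sum (694243), against sums of 956697 and 958536 in replicates 2 and 3. The part of these sums in the levels of *Trh* was not tested.

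A single repeat element, a copy of the ancient family MIR3 at chr6:92243311-92243394, lies inside *Trh*, between exons 2 and 3. Reads in this element are counted apart from FPKM and can come from RNA that still holds the intron. The libraries do not keep the strand, so antisense RNA would be included. The element had 1, 0 and 0 reads in the wild-type-labelled group and 4, 2, 5 and 0 reads in the mutant libraries. Mutant replicate 4, which had the second highest *Trh* FPKM, had no read there, and at 12 reads in all no order of the libraries could be read from this element.

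The genes around *Trh* did not share its pattern. The 3 nearest genes on the lower-coordinate side were *Rbsn*, at 27250 bp, *Mrps25* and *Nr2c2*, and the 3 on the other side were *Prickle2*, at 126242 bp, *Adamts9* and 9530026P05Rik. In all 6 the groups overlapped, with log2 fold changes from -0.07 for *Rbsn*, a regulator of endosomal traffic, to 0.11 for *Prickle2*, a planar cell polarity gene (adjusted p = 0.594 to 0.989 from limma). *Rbsn* had 23.1, 20.9 and 18.8 FPKM in the wild-type-labelled group, against 19.3, 19.7, 20.6 and 20.1 FPKM in the mutant group.

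The genes whose levels followed those of *Trh* most closely over the 7 libraries were *Osbpl11*, which encodes a lipid-binding protein, with a Pearson r of 0.988 on log2(FPKM + 0.5), *Rec8*, the meiotic cohesin subunit, with 0.986, *Sema7a*, a membrane-anchored semaphorin, with 0.977, and *Kcnk3*, a potassium channel, and *Klhl36*, each with 0.973. Of 13987 genes compared, 14 had an r over 0.95. All 7 points of these correlations share the split into groups, and each of the 5 genes was higher in every mutant library. Their differences were smaller than that of *Trh*. *Rec8* had 3.51, 3.03 and 2.53 FPKM in the wild-type-labelled group, against 4.71, 5.12, 5.58 and 5.28 FPKM in the mutant group, the same low place of the library labelled wild-type replicate 3 as in *Trh*. *Kcnk3* had 9.52, 8.91 and 8.35 FPKM against 12.3, 12.7, 12.6 and 12.6 FPKM. Among the members, *Cpe* had an r of 0.693 and *Pam* an r of 0.591 with *Trh*.

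The processing enzymes fell into 2 classes by level. *Cpe* and *Pam* were expressed at 40.6 FPKM or more, well above *Trh*, while the convertases *Pcsk1* and *Pcsk2* stayed under 0.5 FPKM in every library. The order of the members by mean level, per length, was *Cpe*, *Pam*, *Trh* and then *Pcsk1*, *Pcsk2*, *Trhde* and *Trhr*. *Pcsk1* and *Pcsk2* overlapped in range, and so did *Pcsk2*, *Trhde* and *Trhr*, so the order among these neighbours was within their spread. *Trh*, *Cpe* and *Pam* passed the filter, and none of the other 4 members did.

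*Cpe*, carboxypeptidase E, lies on chromosome 8 (chr8:64592551-64693040, minus strand). It had 90.4, 95.4 and 90.8 FPKM in the wild-type-labelled group, against 116, 122, 103.2 and 103.6 FPKM in the mutant group. Every mutant library was above every library labelled wild-type. The means were 92.2 ± 2.78 FPKM (SD, n = 3) and 111 ± 9.46 FPKM (SD, n = 4). The log2 fold change was 0.27 (SE 0.08), which did not pass the threshold over all genes (adjusted p = 0.186, unadjusted p = 0.00707, both from limma).

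*Pam*, peptidylglycine alpha-amidating monooxygenase, lies on chromosome 1 (chr1:97821094-98095632, minus strand). It had 40.6, 41.1 and 42.7 FPKM in the wild-type-labelled group, against 49.5, 48.2, 43.5 and 44.7 FPKM in the mutant group. The groups did not overlap, but mutant replicate 3 was above the library labelled wild-type replicate 3 by less than 1 FPKM. From 41.4 ± 1.10 FPKM (SD, n = 3) to 46.5 ± 2.81 FPKM (SD, n = 4), the log2 fold change was 0.16 (SE 0.06, adjusted p = 0.26 and unadjusted p = 0.0343 from limma). In both *Cpe* and *Pam*, mutant replicates 1 and 2 were the highest libraries, whereas *Trh* was highest in mutant replicates 3 and 4.

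All 3 members that passed the filter were thus higher in every mutant library, for *Trh* by the way it was chosen. Over all tested genes, groups did not overlap with the mutant higher in 7.31% and with the mutant lower in 7.59%, and the 2 members that were not chosen for their levels are too few to set against these shares. Neither *Cpe* nor *Pam* was called changed, and of all tested genes 0.00715% was called, 1 gene that was lower. At an unadjusted p under 0.05, the share of genes that were higher was 8.21%. When the library labelled wild-type replicate 3 was left out, the mutant libraries remained above the others for *Trh*, *Cpe* and *Pam*, the same held for 15.6% of all tested genes, and the adjusted p was 0.134 for *Cpe* and 0.182 for *Pam*.

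The convertases cut the precursor at its basic pairs, *Pcsk1* mainly in the early and *Pcsk2* in the later granule. *Pcsk1* (chr13:75089987-75132498, plus strand) had 0.280, 0.252 and 0.308 FPKM in the wild-type-labelled group, against 0.285, 0.232, 0.253 and 0.219 FPKM in the mutant group. *Pcsk2* (chr2:143546133-143816282, plus strand) had 0.115, 0.307 and 0.165 FPKM and 0.129, 0.146, 0.0748 and 0.0884 FPKM. The groups overlapped in both genes, and for *Pcsk2* the library of wild-type replicate 2 stood above the other 6. Among all genes under the filter that had a value above 0, the groups did not overlap in 4.62%, and in none of the 4 members under the filter were they apart. Neither difference in mean FPKM reached a p of 0.05 (exact permutation tests, two-sided, with 35 possible splits, p = 0.229 for *Pcsk1* and p = 0.114 for *Pcsk2*). This test cannot give a p-value below 0.0286, and 4 members were tested in this way. The values stood for near 27 to 44 fragments of *Pcsk1* and 9 to 37 of *Pcsk2* per library, a depth at which counting error alone is a large part of each value.

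The receptor and the degrading enzyme were near the lower limit of the data. *Trhr* (chr15:44196135-44235912, plus strand) had 0.108, 0.0343 and 0.0264 FPKM in the wild-type-labelled group, against 0.149, 0.123, 0.0756 and 0.0206 FPKM in the mutant group, near 2 to 14 fragments per library. *Trhde* (chr10:114398821-114801370, minus strand) had 0.0673, 0.0686 and 0.0703 FPKM and 0.0379, 0.10, 0.0685 and 0.132 FPKM, near 6 to 18 fragments. In both genes the lowest of all 7 libraries and the highest were mutant libraries. The groups overlapped, and a difference was not detectable at this depth (exact permutation tests, p = 0.4 for *Trhr* and p = 0.6 for *Trhde*). *Trhr2*, the gene for the other TRH receptor of the mouse, was listed at 0 in 6 libraries and at 0.04 FPKM in mutant replicate 1.

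**Figure D2:**
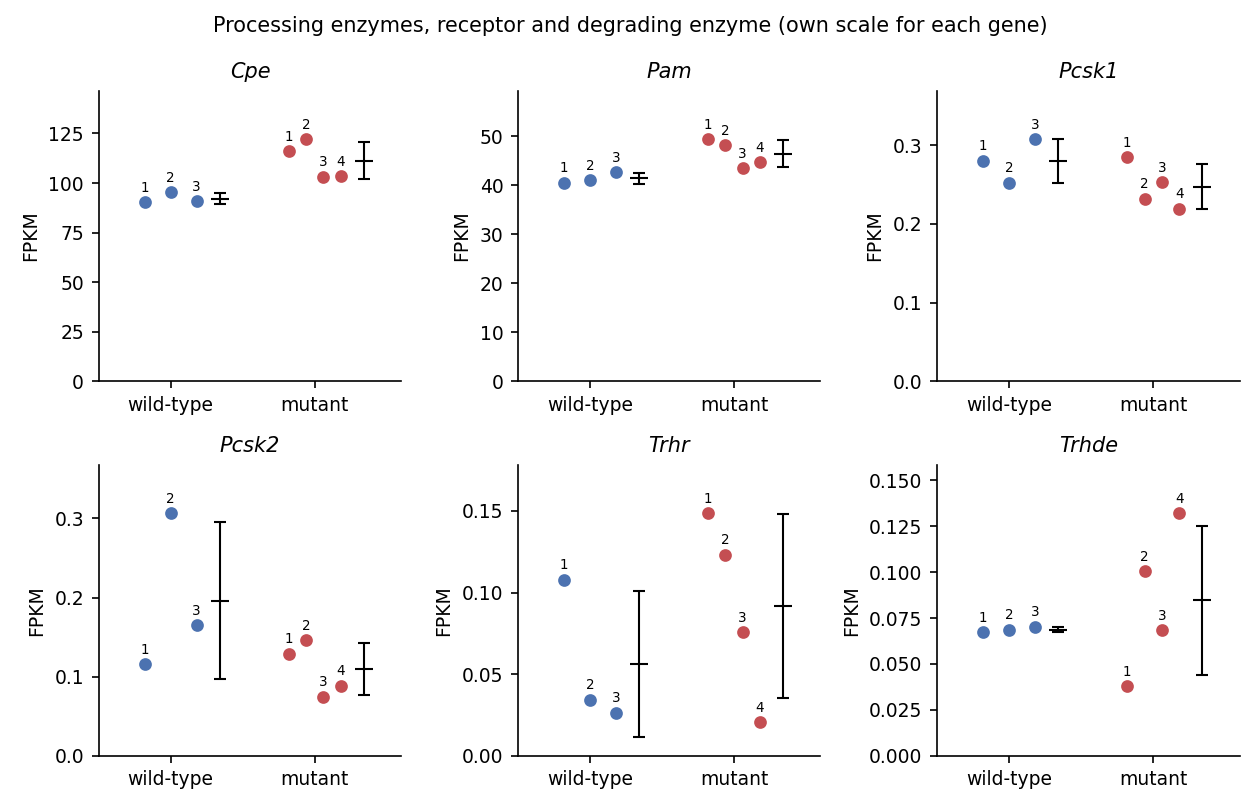
FPKM of the 6 other members in each library, for 3 libraries labelled wild-type and 4 mutant libraries, with a scale from 0 for each gene; numbers beside the points are replicate numbers, and black marks with bars are means with SD. The groups separate for *Cpe* and *Pam*, at 90.4 to 122 and 40.6 to 49.5 FPKM, and overlap for the 4 genes under 0.5 FPKM.

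Reads in repeat elements inside the gene bodies gave a second readout. The authors counted uniquely mapped reads per RepeatMasker element, and most such elements inside the members lie in introns: none of the elements in *Trh*, *Trhr*, *Trhde* and *Pcsk1* touches an exon, and in *Pcsk2*, *Pam* and *Cpe* 6.90%, 4.80% and 4.48% of the reads were in elements that do. The counts were summed over each gene and tested with edgeR over 12884 genes with a mean of at least 10 reads. The libraries do not keep the strand, so RNA of an overlapping or antisense gene would be included.

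In *Cpe*, 147 elements held 180, 116 and 138 reads in the wild-type-labelled group and 108, 120, 86 and 123 reads in the mutant libraries. Scaled by edgeR to the size of each library, as CPM, these were 39.7 ± 3.15 (SD, n = 3) and 35.5 ± 5.25 (SD, n = 4), with overlapping groups and a log2 fold change of -0.16 (SE 0.14, adjusted p = 0.682 from edgeR). The element with most reads was an MTD copy at chr8:64619617-64620018 with 51 reads over all libraries. So the groups of *Cpe* were apart in FPKM and overlapped in repeat reads. As a comparison chosen after the values were seen, the log2 ratio of FPKM to repeat CPM was 1.06, 1.35 and 1.24 in the wild-type-labelled group and 1.76, 1.6, 1.85 and 1.42 in the mutant libraries. The groups of this ratio did not overlap, which held with the mutant higher for 4.47% and with the mutant lower for 4.02% of 11519 genes. Its difference of 0.44, from 1.22 ± 0.15 (SD, n = 3) to 1.66 ± 0.19 (SD, n = 4), missed a p of 0.05 (exact permutation test, p = 0.0571).

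In *Pam*, 222 elements held 441, 279 and 362 reads in the wild-type-labelled group and 327, 326, 265 and 314 reads in the mutant libraries. The CPM values were 98.9 ± 8.30 (SD, n = 3) and 100 ± 9.13 (SD, n = 4), the groups overlapped, and the log2 fold change was 0.02 (SE 0.10, adjusted p = 0.967 from edgeR). A B4A copy at chr1:97842764-97843041 and a MIR copy at chr1:98071183-98071380 had the most reads, 54 each. The log2 ratio of FPKM to repeat CPM differed by 0.14 between the groups, which overlapped (exact permutation test, p = 0.143).

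*Pcsk2* and *Trhde*, which did not pass the FPKM filter, had enough repeat reads for the test. In *Pcsk2*, 298 elements held 26, 19 and 20 reads in the wild-type-labelled group and 32, 23, 23 and 31 reads in the mutant libraries, or 6.25, 6.11 and 5.57 CPM and 10.2, 7.75, 7.66 and 9.76 CPM. In *Trhde*, 395 elements held 24, 29 and 31 reads and 33, 29, 30 and 54 reads, or 5.77, 9.33 and 8.64 CPM and 10.5, 9.77, 10 and 17.0 CPM. In both genes every mutant library was higher in CPM than every library labelled wild-type, a pattern shown by 5.19% of the genes tested (5.29% had every mutant library lower). The log2 fold changes were 0.56 for *Pcsk2* (SE 0.23, adjusted p = 0.349, unadjusted p = 0.0302) and 0.60 for *Trhde* (SE 0.27, adjusted p = 0.382, unadjusted p = 0.0427), all from edgeR, so neither was called changed. Of all tested genes, 0.00776% was called. The reads of *Pcsk2* and *Trhde* were spread over 105 and 121 elements, and in *Pcsk2* an L1Md_A copy at chr2:143625241-143631840 had the most, 9 reads. In *Trhde* 2 elements had 7 reads each: an L1_Mus3 copy at chr10:114421217-114423392, with 3, 1 and 1 reads in the wild-type-labelled group and 0, 0, 0 and 2 in the mutant group, and an L1MB8 copy at chr10:114642174-114643788, with none in the wild-type-labelled group and 1, 1, 2 and 3 in the mutant group.

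Repeat reads of genes with little mRNA were shifted as a group. The 1356 genes in this test that did not pass the FPKM filter, *Pcsk2* and *Trhde* among them, had a median difference of 0.19 on the log2 scale, and in 13.79% of them every mutant library was higher, against 1.92% in which every mutant library was lower. The share of repeat reads in elements not fully inside any gene body was 16.98% to 17.95% in the wild-type-labelled group and 18.72% to 19.65% in the mutant libraries. The part of this shift in the values of *Pcsk2* and *Trhde* was not tested.

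*Pcsk1* and *Trhr* had too few repeat reads for the fit. In *Pcsk1*, 36 elements held 4, 0 and 3 reads in the wild-type-labelled group and 4, 7, 5 and 5 reads in the mutant libraries. Relative to all repeat reads of its library, every mutant library was higher (exact permutation test, p = 0.0286, the smallest possible), which held for 5.79% of genes under the minimum of 10 reads, and the difference between the nearest libraries rests on a read or less. In *Trhr*, 41 elements held 3, 2 and 2 reads and 0, 3, 3 and 3 reads (exact permutation test, p = 0.914). The elements with most reads were an Lx7 copy at chr13:75103528-75104479 and a B1_Mus2 copy at chr13:75107096-75107240 in *Pcsk1*, with 4 reads each, and an L1VL4 copy at chr15:44203047-44205069 in *Trhr*, with 3.

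**Figure D3:**
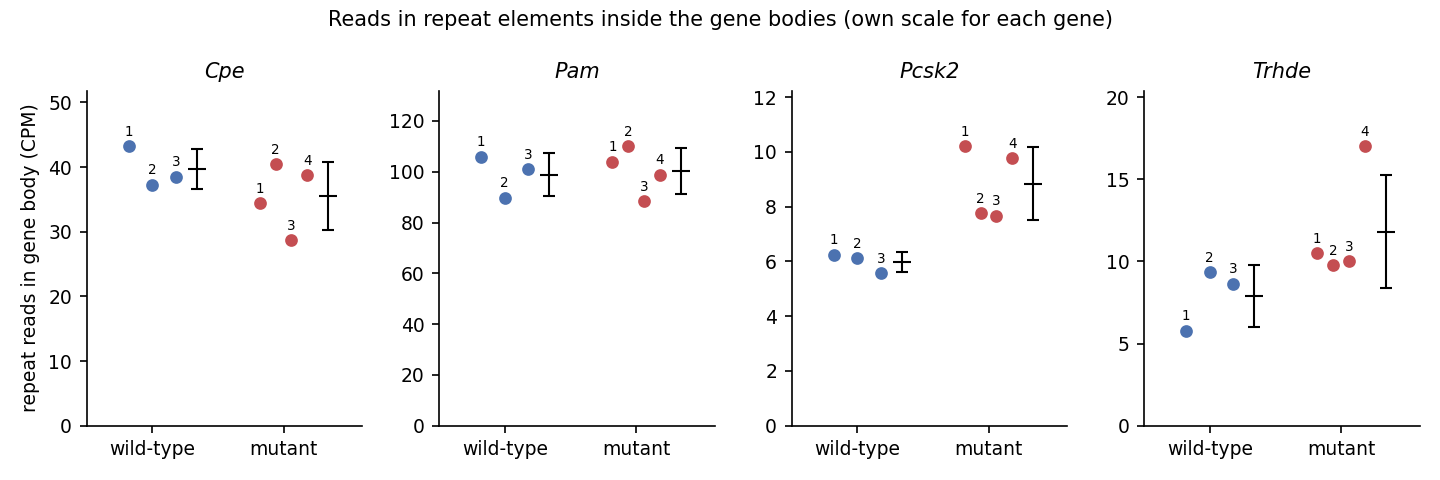
Reads in repeat elements inside 4 members, in CPM on the vertical axes, for 3 libraries labelled wild-type and 4 mutant libraries, with a scale from 0 for each gene; numbers beside the points are replicate numbers, and black marks with bars are means with SD. The groups overlap for *Cpe* and *Pam* and do not overlap for *Pcsk2* (5.57 to 6.25 against 7.66 to 10.2 CPM) and *Trhde* (5.77 to 9.33 against 9.77 to 17.0 CPM).

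The other genes of the pathway were taken as 6 lists with 99 genes, of which 45 passed the filter. None was called changed by limma, and 5 had an unadjusted p under 0.05. In 3 (6.67%) every mutant library was higher, against 7.31% of all tested genes, and in none was every mutant library lower, against 7.59%. The filter used the mean over all 7 libraries, so a gene can pass it through its higher group alone, as *Gnrh1* did. *Kiss1*, a listed gene lower in every mutant library, did not pass it, so these counts depend in part on the filter. The median log2 fold change of the 45 genes was 0.09, and that of all tested genes 0.01.

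Of 9 further convertases and convertase partners, 7 passed the filter, all with overlapping groups and a median log2 fold change of 0.13. The widely expressed convertases had higher levels than *Pcsk1* and *Pcsk2*: *Pcsk5* had 14.9 to 22.4 FPKM, *Pcsk6* 14.3 to 19.0 FPKM, *Pcsk7* 9.86 to 12.9 FPKM and *Furin* 2.77 to 4.24 FPKM over the 7 libraries. *Scg5*, the chaperone of the *Pcsk2* product, had 0.513 to 0.986 FPKM, and *Pcsk1n*, the inhibitor of the *Pcsk1* product, was under 0.05 FPKM in each library.

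The list for trimming, ring closure and degradation had 8 genes, all past the filter, with a median of 0.04. *Qpct* and *Qpctl*, the glutaminyl cyclases that close the ring at the start of TRH, had 2.05 to 3.98 and 2.26 to 3.43 FPKM with overlapping groups. *Pgpep1*, a peptidase of the cytosol that removes such a ring-closed residue, was the only gene of the list whose groups did not overlap. It had 14.3, 15.1 and 15.4 FPKM in the wild-type-labelled group, against 16.9, 16.9, 17.1 and 17.2 FPKM in the mutant group, with a log2 fold change of 0.18 (SE 0.06, adjusted p = 0.204 from limma). *Prep*, prolyl endopeptidase, which also cleaves TRH, had 23.2 to 31.9 FPKM with overlapping groups.

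Below the receptor, 9 of 10 genes for the second TRH receptor, Gq proteins, phospholipase C beta and inositol trisphosphate receptors passed the filter, with a median of 0.04 and overlapping groups in each. *Gnaq* and *Gna11*, the genes for the Gq-class alpha subunits, had 12 to 14.0 and 15.3 to 18.6 FPKM. *Itpr1*, an inositol trisphosphate receptor gene, was the highest of the list at 31.5 to 38.7 FPKM.

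Granule genes, by contrast with *Cpe* and *Pam*, were mostly low: 3 of 10 passed the filter, and *Chgb*, *Scg2*, *Vgf* and *Ptprn* were under 0.2 FPKM in each library. *Chga*, chromogranin A, had 0.904, 1.32 and 0.605 FPKM in the wild-type-labelled group, against 2.55, 1.67, 1.97 and 1.35 FPKM in the mutant group. Its groups did not overlap, though mutant replicate 4 and wild-type replicate 2 lay within 0.1 FPKM, and the log2 fold change of 0.73 (SE 0.21) did not pass the threshold (adjusted p = 0.186 from limma).

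Among 43 genes for other peptide prohormones, 13 passed the filter, with a median of 0.15, and 7 were listed at 0 in all libraries. *Gnrh1*, the gene for gonadotropin-releasing hormone, was the only one of the 13 whose groups did not overlap. It had 0.393, 0.668 and 0.324 FPKM in the wild-type-labelled group, against 1.38, 0.765, 1.05 and 1.18 FPKM in the mutant group, a log2 fold change of 0.73 (SE 0.18, adjusted p = 0.172 from limma). Its mean in the wild-type-labelled group, 0.462 FPKM, was under the filter of 0.5 FPKM. *Gnrh1* thus passed only through its mutant libraries, and its place among the 13 rests on the group where it was higher. The highest prohormone genes, *Npy* at 17.2 to 41.6 FPKM, *Nts* at 22.1 to 32.7 FPKM and *Nppc* at 12.2 to 22.9 FPKM, had overlapping groups. *Trh*, at 2.12 to 10.9 FPKM, was between these and the genes near 1 FPKM such as *Pomc*.

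Of 19 genes of the thyroid axis, 5 passed the filter, all with overlapping groups and a median of 0.22. *Thra*, a thyroid hormone receptor gene, had 28.9 to 35.8 FPKM in the wild-type-labelled group and 35.2 to 42.6 FPKM in the mutant libraries, which overlapped. *Tshb* and *Tshr*, for a subunit of thyroid-stimulating hormone and its receptor, did not pass the filter, with at most 0.413 and 0.127 FPKM.

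**Figure D4:**
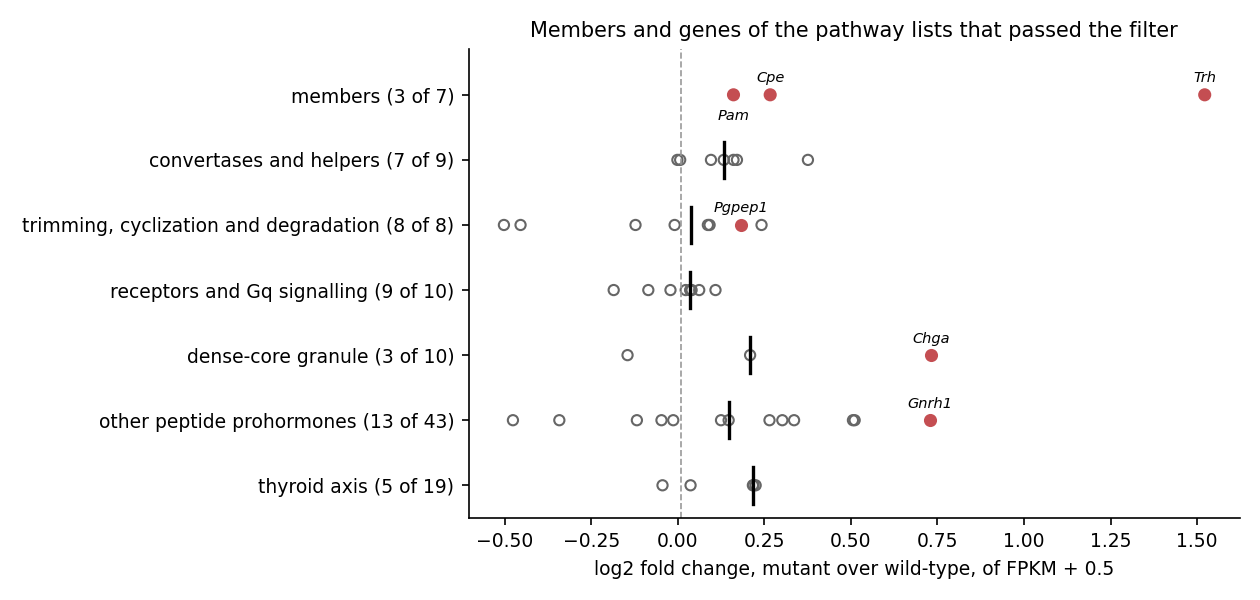
Log2 fold changes of FPKM + 0.5, mutant over wild-type, on the horizontal axis for the 3 members and the genes of 6 pathway lists that passed the filter (in brackets, how many of how many); filled points have groups that do not overlap, short black lines are the medians of the lists, and the dashed line is the median of all tested genes at 0.01. *Trh* stands at 1.52, and no listed gene exceeds 0.73.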

How the data were processed

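Whole testes of 7 embryos were sequenced, 3 labelled wild-type and 4 mutant; groups came from the sample labels. The authors aligned reads to mm10 with TopHat2 2.0.12 (version from the submitters' processing notes), without strand, and deposited FPKM per RefSeq gene, scaled for library size. The paper names Cuffquant and Cuffnorm for the FPKM of its heatmaps, and the processing notes list Cuffdiff 2.1.1. They also deposited counts of uniquely mapped reads per RepeatMasker element, made with HTSeq and not normalized.

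FPKM was tested as log2(FPKM + 0.5), a scale that understates changes of low genes, with limma 3.58.1 (two-sided, with a trend) in R 4.3.3, for genes averaging 0.5 FPKM or more; adjusted p-values are Benjamini-Hochberg over all tested genes, at a threshold of 0.05. Exact permutation tests, two-sided and over 35 splits, served for members under the filter. Elements fully inside a gene's span were summed with bedtools 2.31.1 and tested with edgeR 4.0.16 (quasi-likelihood, TMM) at a mean of at least 10 reads. DESeq2 1.42.0 was an alternative. The tests were checked on simulated data in which 200 genes changed by 1.5 on the log2 scale. There limma recovered 187 of them and called 11 unchanged genes, and edgeR recovered 177 and called 14. That change is larger than those of the tested members and no library was made to deviate, so the power for smaller changes was not checked. Fragments per gene were estimated from genes with a value above 0 in 1 library only, each taken as 1 fragment of its transcript. The estimates are approximate, and too low where such genes held more than 1 fragment. Fragment numbers cover counting error only.

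Sequence came from the GENCODE M21 transcripts (GRCm38, the assembly of mm10), and plots and exact tests from Python 3.11.15. Genes named were the members, the listed genes with groups that do not overlap (at most 4 a list), the 5 tested genes most like *Trh*, its 3 neighbours on each side, *Glis3* and the element with most reads in each member; other listed genes were named after their values were seen. The members, lists and tests were chosen with earlier results of these data known. There were 9 marker lists. A few genes of the lists are not reported here. Alternatives were other pseudocounts, filters, scalings and tools, a term for the replicate number (block), and each library left out in turn. Cuffdiff was not run, since it works from aligned reads.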

Additional observations from a re-analysis of the deposited data

How the results depend on the processing

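The log2 fold change of *Trh* stayed between 1.38 and 1.66 over 15 alternatives, and between 1.40 and 1.65 with each library left out. Those of *Cpe* and *Pam* in FPKM stayed positive, from 0.22 to 0.30 (adjusted p = 0.134 to 0.399 from limma) and from 0.13 to 0.19 (0.182 to 0.484), and neither was called under any alternative. In repeat reads, *Pcsk2* ranged from 0.49 to 0.69, *Trhde* from 0.37 to 0.73 and *Cpe* from -0.23 to -0.07, none called (lowest adjusted p 0.302). The repeat reads of *Pam*, near no difference, changed sign with no filter (-0.0) and ranged from -0.047 to 0.073 with a library left out, among them -0.001 without mutant replicate 1, -0.028 without mutant replicate 2 and -0.047 without wild-type replicate 2; the cause was not tested. Genes called from FPKM were 1 in all, 4 with no filter, 3 with quantile normalization, 0 with the replicate block (1726 at an unadjusted p under 0.05) and 1 to 720 with a library left out, the 720 (162 higher and 558 lower) without the library labelled wild-type replicate 3. From repeat reads 1 gene was called in all, 49 with DESeq2, 53 with no filter beyond 1 read, 27 with elements that touch no exon, 0 with the replicate block (1176 at an unadjusted p under 0.05) and 0 to 147 with a library left out, the 147 (25 higher and 122 lower) again without that library. Same-numbered samples share only a number: the correlations of their deviations were 0.198, -0.177 and 0.229, and the block changed no call of a member. *Trhr*, *Trhde*, *Pcsk1* and *Pcsk2* had at most 44 fragments per library, which limits what their FPKM can show.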

Other observations

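*Kiss1*, the gene for kisspeptin, was noticed after its values were seen among the prohormone genes that did not pass the filter. Its FPKM was 0.518, 0.448 and 0.556 in the wild-type-labelled group and 0.153, 0, 0 and 0.154 in the mutant group, so every mutant library was lower. The fragments behind these low values were not estimated, so their counting error is not known. Groups that do not overlap, in either direction, were found in 4.62% of the genes under the filter that had a value above 0. The prohormone list holds 23 genes under the filter with a value above 0, whether or not their groups overlap.

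*Pdyn*, *Penk* and *Npy*, prohormone genes for opioid peptides and neuropeptide Y, had log2 fold changes of 0.51, 0.34 and 0.51 with overlapping groups (adjusted p = 0.244, 0.394 and 0.393 from limma). *Npy* had 17.2, 28.8 and 17.6 FPKM in the wild-type-labelled group, against 18, 28.6, 41.6 and 35.5 FPKM in the mutant group, with its highest values in mutant replicates 3 and 4, as for *Trh*. *Pdyn* had 7.99, 11.5 and 7.56 FPKM and 14.8, 16.0, 11.3 and 10.1 FPKM, with its highest values in mutant replicates 1 and 2.

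The remaining marker lists had no gene called changed by limma. The median log2 fold change was 0.13 for Sertoli cell genes, 0.15 for interstitial genes, 0.02 for endothelial genes and 0.22 for macrophage genes (7 of 8 listed). It was -0.11 for neuronal and chromaffin genes (6 of 12 passed the filter), 0.40 for adrenal cortex genes (4 of 5) and -0.38 for mesonephric genes (3 of 7). These 3 were *Lhx1*, *Ret* and *Emx2*, with log2 fold changes of -0.79, -0.38 and -0.12. The authors name *Ret* and *Lhx1* as genes of undifferentiated spermatogonia, and the cells behind this median were not tested. Groups did not overlap for 1 interstitial, 1 macrophage and 1 neuronal gene (*Tubb3*), with the mutant higher, and for 1 mesonephric gene, with the mutant lower, against shares of 7.31% and 7.59% over all tested genes. *Cyp21a1* and *Cyp11b1*, enzymes of the adrenal cortex, had overlapping groups, with 0.569 to 1.96 and 3.56 to 8.63 FPKM in the wild-type-labelled group and 0.860 to 2.45 and 7.37 to 16.0 FPKM in the mutant libraries.

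Without the library labelled wild-type replicate 3, a setting chosen after seeing the data, 6 of the 45 pathway genes were higher in every mutant library and 2 lower, shares of 13.3% and 4.44%, against 15.6% and 17.1% of all tested genes. Germ cell markers were then lower in 9 of 10 genes, and fetal Leydig cell markers higher in 5 of 10. For repeat reads, the shares of all genes rose to 10.2% higher and 11.7% lower.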
